A study of Mus musculus with 12 samples.

Results

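The carboxylesterase 2 (Ces2) family was followed in the liver of mice fed BIBB-515, an inhibitor of lanosterol synthase in the cholesterol pathway. Its members were the 5 genes Ces2a, Ces2b, Ces2c, Ces2e and Ces2g, taken by symbol from the 24062 genes of the count tables. The libraries came from 12 female C57BL/6J mice, 6 on a control diet and 6 on the same kind of diet carrying BIBB-515. The dose was 55 mg/kg of body weight. The mice were 6 weeks old on arrival, had 2 weeks to acclimate and ate the control diet for 3 days before the start, and the diets were then fed for 10 days. The labels name no genetic change, no treatment other than the diet and no batch, and as the drug was eaten, an action in the liver and one elsewhere in the body cannot be told apart. The libraries are named below by diet and replicate number, control 1 to 6 and BIBB-515 6 to 11. Nothing in the labels ties control 6 to BIBB-515 6.

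Carboxylesterases are serine hydrolases that lie mostly inside the endoplasmic reticulum and split esters, amides and thioesters. Those of group 2 are abundant in liver and intestine, prefer substrates with a small acyl and a large alcohol part, and activate or clear many ester drugs and prodrugs. Some of them also hydrolyse di- and triacylglycerols. Human liver has the single gene CES2, whereas the mouse carries a row of related genes. Several of these are known targets of the xenobiotic receptors PXR (Nr1i2) and CAR (Nr1i3).

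All 5 members lay on the plus strand of chromosome 8 (build mm10), within 236 kb between positions 104734003 and 104969537. Along the chromosome the order was Ces2a, Ces2b, Ces2c, Ces2e and Ces2g. Their relatives Ces2d-ps, Ces2f and Ces2h, with few or no counted reads, lay between or after them. The coding sequences of the members were 81.7% to 86.2% identical in 9 of the 10 pairs, and 91.6% identical between Ces2b and Ces2c. Promoter sequences were found for 4 of the 5 members in the RefSeq promoter table for GRCm38.p6, each 300 bases long from 250 bases before the gene start. They are shown because these 4 genes share a cluster but differed in response, and capitals mark every match, on either strand, to AGGTCA or ACTTTGCCC.
Ces2a promoter, chr8:104733753-104734052, plus strand: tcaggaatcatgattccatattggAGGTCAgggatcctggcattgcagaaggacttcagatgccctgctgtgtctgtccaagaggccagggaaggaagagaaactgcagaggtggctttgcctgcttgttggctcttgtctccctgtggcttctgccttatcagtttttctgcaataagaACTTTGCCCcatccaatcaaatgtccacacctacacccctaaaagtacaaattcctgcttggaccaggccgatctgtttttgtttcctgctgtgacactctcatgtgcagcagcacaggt
Ces2c promoter, chr8:104846818-104847117, plus strand: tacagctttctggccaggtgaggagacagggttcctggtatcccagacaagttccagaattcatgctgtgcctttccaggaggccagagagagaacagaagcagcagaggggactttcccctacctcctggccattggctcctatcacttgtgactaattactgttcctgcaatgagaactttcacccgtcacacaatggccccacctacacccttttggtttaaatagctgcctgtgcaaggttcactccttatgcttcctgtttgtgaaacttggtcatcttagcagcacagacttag
Ces2e promoter, chr8:104926010-104926309, plus strand: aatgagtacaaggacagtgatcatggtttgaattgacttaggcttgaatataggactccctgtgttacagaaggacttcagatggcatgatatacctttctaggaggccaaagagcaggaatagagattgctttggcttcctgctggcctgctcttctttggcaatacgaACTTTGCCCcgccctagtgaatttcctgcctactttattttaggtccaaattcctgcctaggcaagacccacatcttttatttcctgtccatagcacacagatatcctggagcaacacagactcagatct
Ces2g promoter, chr8:104961468-104961767, plus strand: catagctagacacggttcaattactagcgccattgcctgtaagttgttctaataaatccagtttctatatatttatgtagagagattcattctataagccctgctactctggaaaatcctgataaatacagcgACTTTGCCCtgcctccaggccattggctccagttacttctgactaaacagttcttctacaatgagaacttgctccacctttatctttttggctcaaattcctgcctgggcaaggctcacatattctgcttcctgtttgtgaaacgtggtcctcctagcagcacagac

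The motif AGGTCA, the core motif of many nuclear receptors, and its variant AGTTCA were searched on both strands together with ACTTTGCCC, which was picked after these promoters had been read. ACTTTGCCC stood in the promoters of Ces2a, Ces2e and Ces2g, 70, 80 and 117 bases before the gene start, and not in that of Ces2c. Outside the members, ACTTTGCCC also stood 92 bases before the start of Ces2f, which had 0 counted reads in every library. ACTTTGCCC was present in 0.262% of the 32851 promoters searched. AGGTCA was found in the promoter of Ces2a, 226 bases before the start, and in 16.3% of all promoters, whereas AGTTCA was found in none of the 4 members and in 14.0% of all promoters. The promoter of Ces2h, not a member, held both AGGTCA and AGTTCA. None of the 3 motifs overlapped another in these windows. The members with ACTTTGCCC had log2 fold changes of 3.53, 0.21 and 0.56 and Ces2c, which lacked it, 2.53. Aligned promoters of the members were 55.6% to 66.9% identical, with the highest value between Ces2a and Ces2c.

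Total gene counts ranged from 22764819 to 27914647 for control and from 24223939 to 31058370 for BIBB-515 libraries. No library repeated another, the smallest chi-square per degree of freedom within a diet being 12.7. The top 20 genes held 27.7% to 29.8% of control counts and 23.6% to 25.2% of BIBB-515 counts. The tissue was checked with marker lists. The summed level of 6 hepatocyte markers was 140287 to 155410 CPM (read counts scaled to a common library size with TMM factors) in control and 104680 to 120753 CPM in BIBB-515 mice, with Alb and Ttr, which encode plasma proteins, lower at an FDR under 0.05 and 0 of 6 higher (edgeR, also 0 at an unadjusted p under 0.05 and 0 with DESeq2 and limma-voom). Since Ces2 enzymes are also intestinal, the 7 intestinal markers were examined: Cdx1, Cdx2 and Alpi had 0 reads in every library, and the sum was 71.5 to 145 CPM in control and 66.1 to 87.2 CPM in BIBB-515 mice, carried by Fabp2, which liver also expresses and which was lower with BIBB-515 (111 and 70.2 CPM in the mean, log2 fold change -0.66, FDR = 0.0114, edgeR). Of 6 markers of exocrine pancreas, Prss2, Pnlip and Amy2a5 had 0 reads in every library and Cela1, the only tested marker, was lower (FDR = 0.0365, edgeR), a call not made by limma-voom. Of the 5 stellate cell markers, Lrat and Dcn were lower (FDR = 0.0202 and 0.0398, edgeR), and none of the 4 Kupffer cell or 4 sinusoidal endothelium markers passed an FDR of 0.05 in edgeR, DESeq2 or limma-voom, or an unadjusted p of 0.05 in edgeR. Of the 5 bile duct markers 0 passed in edgeR, 1 at an unadjusted p under 0.05, and 1 in DESeq2.

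Ces2a and Ces2c rose strongly in the livers of mice on BIBB-515, Ces2g rose moderately, the small difference in Ces2e did not pass the test, and Ces2b was barely detected on either diet. Of the 5 members, 4 passed the filter of at least 1 CPM in at least 2 libraries, and 3 of these were higher with BIBB-515 at an FDR under 0.05 (edgeR quasi-likelihood test, Benjamini-Hochberg over all 12481 tested genes). Over all tested genes 7.18% were called higher, 6.48% lower and 13.7% in either direction. None of the 4 was lower (0 at an unadjusted p under 0.05, and 0 with DESeq2 and limma-voom). In the 3 called members each BIBB-515 mouse lay above each control mouse, a pattern shown by 4.35% of all tested genes, while 2.72% lay wholly below and 7.07% were apart in either direction. The median log2 fold change of the 4 tested members was 1.54, against -0.01 over all tested genes. As these are bulk tissue libraries, more RNA per hepatocyte and more cells that express a gene cannot be told apart.

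**Figure D1:**
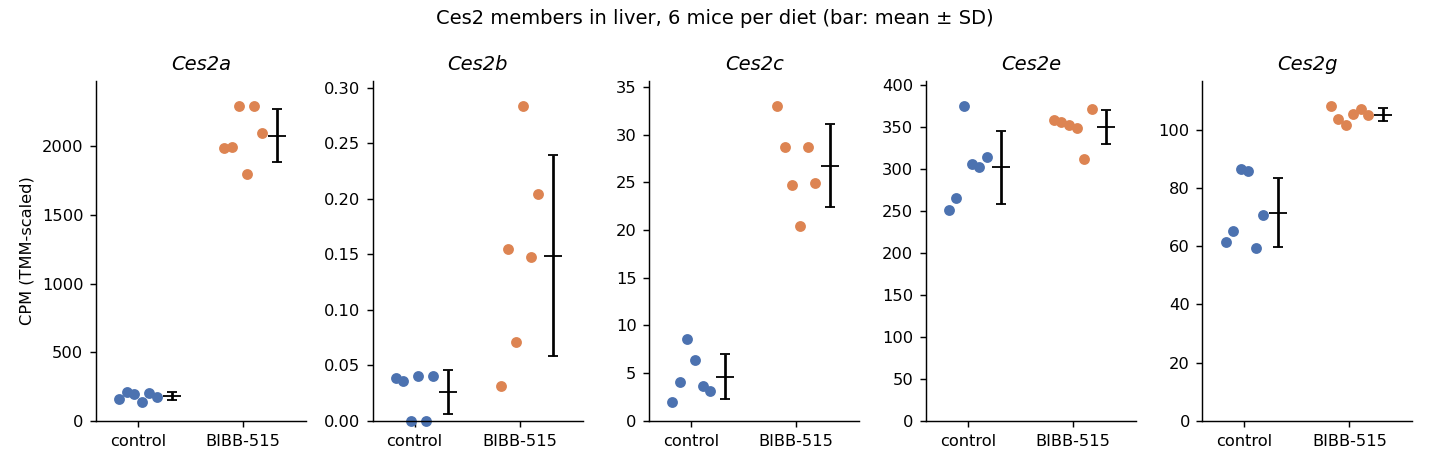
CPM (TMM-scaled, linear axis from 0, a separate scale for each gene) of the 5 Ces2 members in 6 control and 6 BIBB-515 mice; each point is a mouse and the black bar its group mean ± SD. The groups separate for Ces2a, Ces2c and Ces2g, overlap for Ces2e, and rest on at most 7 reads per library for Ces2b.

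Ces2a (chromosome 8, 104734003 to 104741634) encodes an esterase of the endoplasmic reticulum with activity against drug esters and acylglycerols. Its level was 137, 183 and 210 CPM in the lowest, median and highest control mouse, and 1799, 2047 and 2291 CPM in the lowest, median and highest BIBB-515 mouse. The lowest BIBB-515 mouse, number 9, thus stood far above the highest control mouse, number 2. Means were 179 ± 28.9 CPM on the control diet and 2077 ± 192 CPM on BIBB-515 (SD, n = 6 each). The log2 fold change was 3.53 ± 0.12 (SE), an 11.6-fold rise (FDR = 2.07e-10, edgeR), and the exact permutation test of log2 CPM gave its smallest possible p for 6 against 6 mice (two-sided, p = 0.00216). In the main edgeR fit Ces2a had the lowest p of all 12481 tested genes and the rank of 9 by fold rise. These ranks refer to that fit only. Relative to the mean, the spread between mice was 16.1% on the control diet and 9.24% on BIBB-515.

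Ces2c (chromosome 8, 104847068 to 104854482) encodes an esterase first described as an inducible acylcarnitine hydrolase of liver. Control mice had 2.01 CPM at the lowest, 3.89 at the median and 8.53 at the highest, and BIBB-515 mice 20.4, 26.8 and 33.0 CPM. The groups did not overlap, although control mice differed among themselves by 4.24-fold, the widest range of the 4 tested members, with number 1 lowest and number 3 highest. The means were 4.65 ± 2.39 and 26.7 ± 4.33 CPM (SD, n = 6 each), a log2 fold change of 2.53 ± 0.25 (SE; FDR = 1.94e-05, edgeR; exact permutation p = 0.00216, two-sided).

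The reads behind Ces2c were few, 52 to 195 per control and 504 to 1040 per BIBB-515 library, and they lay on part of the gene. Exons 1 to 7 held 1011 reads in the 6 control and 6693 in the 6 BIBB-515 libraries, counting a read for each exon it touched, while exons 8 to 12, which make up 842 of the 1969 bases, held 0 and 23. In exons 8 to 12 all compared bases were identical to the neighbouring gene Ces2d-ps, annotated as a pseudogene. Of the 405 bases of exon 12, 224 lay outside the annotated pseudogene and were not compared. The tables of primary alignments held 5231 reads for Ces2c against 5228 in the main tables. Exon 2, which carried reads, differed from the matching exon of Ces2d-ps at 19 of 207 compared bases, and exon 8, which held 0 control and 10 BIBB-515 reads, at 0 of 76. Both pairs are printed to show this difference, from GENCODE transcripts on mm10, with differing bases in capitals.
Ces2c exon 2, chr8:104847989-104848199, plus strand: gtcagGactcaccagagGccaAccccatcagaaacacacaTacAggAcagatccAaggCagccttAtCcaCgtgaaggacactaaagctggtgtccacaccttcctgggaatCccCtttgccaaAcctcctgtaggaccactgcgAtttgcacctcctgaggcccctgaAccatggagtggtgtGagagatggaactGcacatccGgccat
Ces2d-ps exon 2, chr8:104867897-104868103, plus strand: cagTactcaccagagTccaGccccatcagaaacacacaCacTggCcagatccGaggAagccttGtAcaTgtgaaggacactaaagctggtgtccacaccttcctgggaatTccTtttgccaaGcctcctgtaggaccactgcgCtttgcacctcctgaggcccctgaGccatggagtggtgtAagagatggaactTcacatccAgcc
Ces2c exon 8, chr8:104852283-104852363, plus strand: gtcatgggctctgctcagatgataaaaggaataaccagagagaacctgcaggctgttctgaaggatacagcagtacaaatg
Ces2d-ps exon 8, chr8:104871888-104871963, plus strand: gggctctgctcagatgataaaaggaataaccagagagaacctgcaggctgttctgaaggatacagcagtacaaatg

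Shared 50-base words were counted within each exon, so their share does not describe reads that span an exon boundary. Of all 50-base words of Ces2c exon 6, 100% also occurred in transcripts of other genes, and this exon held 130 control and 864 BIBB-515 reads. Exon 4 was identical to Ces2d-ps at 129 of 129 compared bases and held 49 and 318 reads. Exon 12 held no read in any library, and 37.9% of its words were shared, counted against annotated transcripts only. Words outside the annotated pseudogene, over 224 of its 405 bases, could not count as shared with Ces2d-ps. The cause of the empty exons was not tested. The level of Ces2c per kilobase below therefore refers to a gene whose counted length was partly empty. The ratio between diets was even over the exons with reads, at 2.47 to 2.58 on the log2 scale in exons 1 to 7, and it was 2.49 in exon 1, which shared no 50-base word with another gene.

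**Figure D2:**
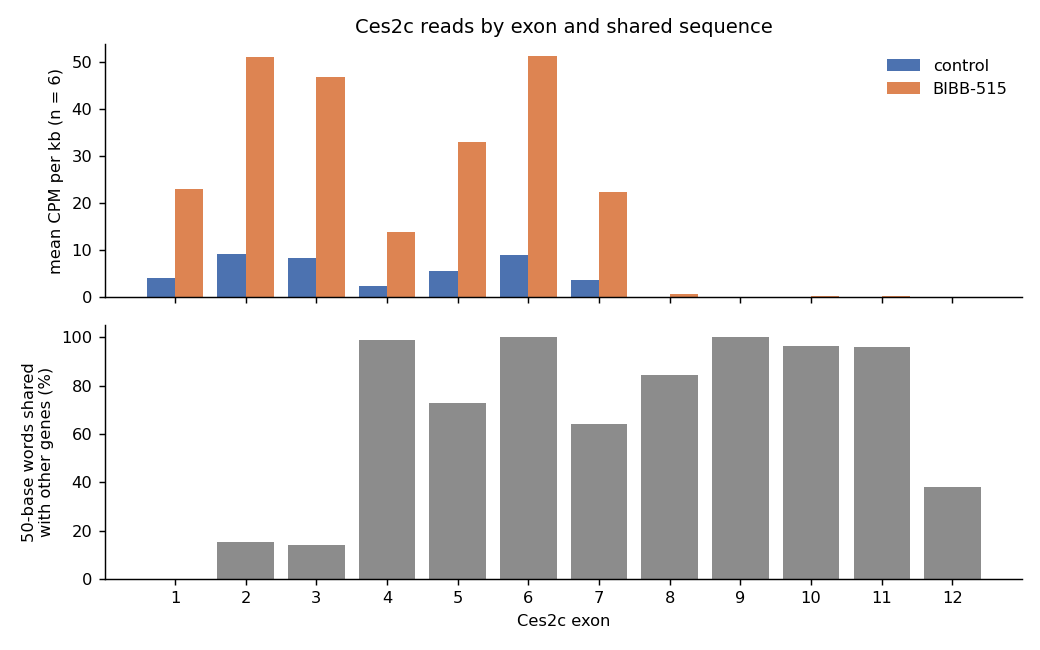
Upper panel: mean CPM per kilobase on each Ces2c exon in control and BIBB-515 mice (n = 6 each). Lower panel: the percentage of 50-base words of the exon found in transcripts of other genes. Exons 1 to 7 carry the reads on both diets and exons 8 to 12 are nearly empty. Exons 4 and 6 share 98.8% and 100% of their words, counted within the exon.

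Ces2g (chromosome 8, 104961718 to 104969537) is a less studied member. Control mice had 59.5 CPM at the lowest, 68.0 at the median and 86.5 at the highest, and BIBB-515 mice 102, 105 and 108 CPM. Each BIBB-515 mouse exceeded each control mouse, and the BIBB-515 mice differed by only 1.06-fold from lowest to highest, against 1.45-fold among control mice. The log2 fold change was 0.56 ± 0.09 (SE), a 1.47-fold rise (FDR = 0.00126, edgeR; exact permutation p = 0.00216, two-sided). Means were 71.5 ± 11.9 and 105 ± 2.29 CPM (SD, n = 6 each).

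Ces2e (chromosome 8, 104926260 to 104934672) had the highest level per kilobase of the family on the control diet. Control mice had 251 CPM at the lowest, 304 at the median and 375 at the highest, and BIBB-515 mice 312, 355 and 371 CPM. The groups overlapped through control 3, which stood above all 6 BIBB-515 mice, and control 6, which stood above BIBB-515 10. The means of 302 ± 43.3 and 350 ± 20.1 CPM (SD, n = 6 each) gave a log2 difference of 0.21 ± 0.09 (SE), which did not pass the threshold over all genes (FDR = 0.127, unadjusted p = 0.0317, edgeR; exact permutation p = 0.0455, two-sided). Without control 3 the log2 difference was 0.29 (FDR = 0.0192, edgeR).

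Ces2b (chromosome 8, 104831644 to 104838652) was at the limit of detection. Its reads numbered 0 or 1 in each control library and 1 to 7 in each BIBB-515 library, the lowest being BIBB-515 6 and the highest BIBB-515 9. The sums were 4 control and 24 BIBB-515 reads, a depth-scaled ratio of 5.26 with an exact 95% interval of 1.81 to 20.9 that covers counting error only. Ces2b did not pass the filter and was not tested in the fit over all genes. Of the distinct 50-base words in the transcripts of Ces2b, 9.66% also occurred in transcripts of Ces2c, Ces2d-ps or other genes. Multi-mapped reads were left out of the counts, and whether any counted read of Ces2b came from a relative was not tested. On its 6 exons without shared words the level was 0.0288 ± 0.0489 CPM per kilobase in control and 0.209 ± 0.114 in BIBB-515 mice (SD, n = 6 each).

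The unequal response was tested on the ratio of reads between members within each mouse, which does not depend on scaling between libraries. There were 6 pairs of the 4 tested members. The log2 ratio of Ces2a to Ces2e rose from -0.76 ± 0.29 to 2.57 ± 0.19 (SD, n = 6 each), a difference of 3.32. In 5 of the 6 pairs the mice of one diet all lay on one side of the other diet (two-sided exact permutation test, p = 0.00216, adjusted over the 6 pairs 0.0026). The differences were 2.97 for Ces2a over Ces2g, 2.44 for Ces2c over Ces2e and 2.09 for Ces2c over Ces2g, and Ces2e fell against Ces2g by 0.35. For Ces2a over Ces2c the diets overlapped and the difference was 0.88, from 5.41 ± 0.76 to 6.29 ± 0.23 (SD, n = 6 each; two-sided exact permutation test, p = 0.0108, adjusted 0.0108). All 4 tested members thus differed from each other in the size of their change.

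The make-up of the family changed with it. Levels between genes are compared as CPM per kilobase of exon. On the control diet Ces2e stood at 112 ± 16 and Ces2a at 91.4 ± 14.7 CPM per kilobase, with overlapping ranges, followed by Ces2g at 25 ± 4.16, Ces2c at 2.36 ± 1.21 and Ces2b at 0.0137 ± 0.0106 (SD, n = 6). On BIBB-515 Ces2a led with 1058 ± 97.8 CPM per kilobase, above Ces2e at 130 ± 7.44, Ces2g at 36.8 ± 0.802, Ces2c at 13.6 ± 2.20 and Ces2b at 0.0785 ± 0.0477 (SD, n = 6). The ranges of these neighbours did not overlap on BIBB-515, nor below Ces2a on the control diet.

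Summed over the 5 members the level was 196 to 272 CPM per kilobase in control mice and 1092 to 1345 in BIBB-515 mice, 5.36-fold higher in the mean. Ces2a made up 32.2% to 46.4% of this sum in control mice and 83.8% to 87.4% in BIBB-515 mice. The share of Ces2e was 42.8% to 52.4% in control and 8.66% to 11.8% in BIBB-515 mice, although its own level did not fall. Ces2c stayed a small part, at 0.522% to 1.59% and 0.935% to 1.40%. Of all reads counted on genes, the members took 0.0547% ± 0.00642 on the control diet and 0.261% ± 0.0185 on BIBB-515 (SD, n = 6 each).

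**Figure D3:**
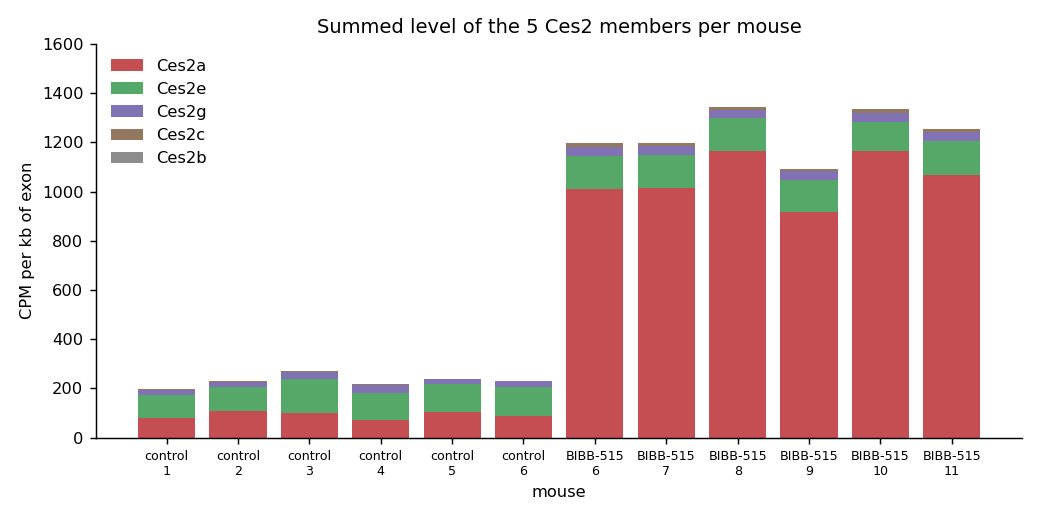
Stacked bars of CPM per kilobase of exon for the 5 Ces2 members in each of the 12 mice, on a linear axis from 0. Totals lie between 196 and 272 for controls, and from 1092 to 1345 for BIBB-515, and most of each BIBB-515 bar is Ces2a; Ces2b is too low to be seen.

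Along the exons the difference between diets had the same sign wherever it could be measured. It was positive in 12 of 12 exons of Ces2a (log2 ratio of group means 3.46 to 3.67), 14 of 14 listed exons of Ces2e (0.15 to 0.44), some of which overlap, and 12 of 12 of Ces2g (0.46 to 0.85), all with a mean of at least 10 reads. Exon 1 had the highest ratio in each of these 3 genes, but not in Ces2c, where exon 7 was highest at 2.58 and exon 1 stood at 2.49. From exon 1 to exon 11 the log2 ratio was smaller by 0.22 in Ces2a, 0.26 in Ces2e and 0.28 in Ces2g. Over 871 tested genes with at least 8 exons that do not overlap, the ratio at the first exon exceeded that at the last but one in 81.5%, with a median of 0.13 and quartiles of 0.03 and 0.22. Single libraries overlapped between diets in this measure, with a median log2 ratio of first to late exon reads of -2.03 to -1.45 in control and -1.77 to -1.33 in BIBB-515 libraries. For Ces2e the difference between exons, 0.26, exceeded its log2 fold change of 0.21. Its part in that result was not tested.

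**Figure D4:**
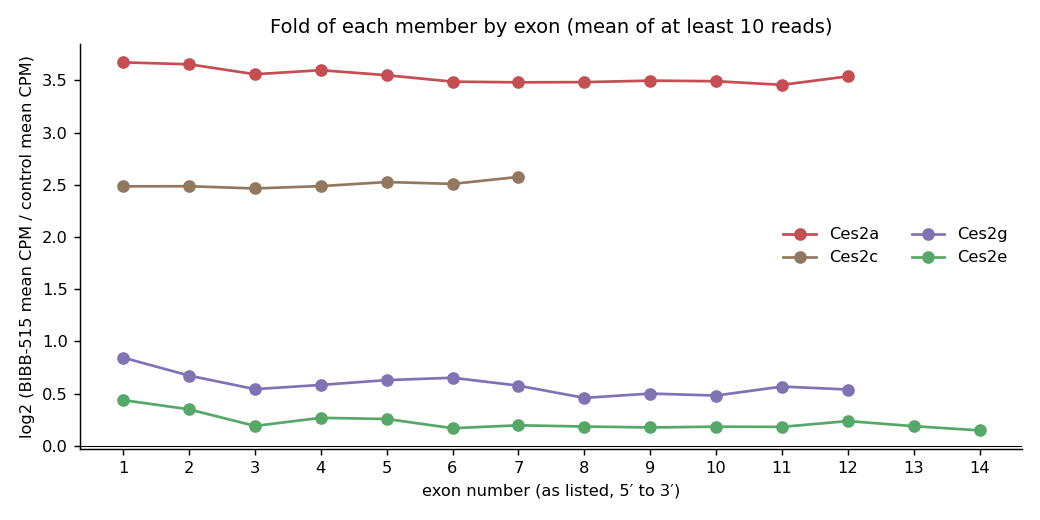
Log2 ratio of the BIBB-515 to the control group mean of CPM on each exon with a mean of at least 10 reads, in listed order from the gene start. Ces2a runs between 3.46 and 3.67, Ces2c between 2.47 and 2.58 over 7 exons, Ces2g between 0.46 and 0.85 and Ces2e between 0.15 and 0.44.

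The 3 other Ces2 genes did not pass the filter. Ces2d-ps had 1 to 14 reads per library, Ces2h 3 to 20 and Ces2f 0 in all 12. The other carboxylesterases did not move in 1 direction. Of 9 tested, 3 were higher and 2 lower (median log2 fold change 0.04, -0.01 over all genes), against 7.18% higher and 6.48% lower over all tested genes. DESeq2 and limma-voom called 4 higher, adding Ces1f (log2 fold change 0.37 ± 0.12, FDR = 0.0605, edgeR). Ces1g, a lipid-related esterase, rose from 162 to 395 CPM in the mean (log2 fold change 1.29 ± 0.09), and Ces1d, a triacylglycerol hydrolase of the endoplasmic reticulum, from 609 to 1232 CPM (1.02 ± 0.16). Ces1e rose by 0.51 ± 0.12 (log2 fold change ± SE; FDR = 0.0133, edgeR). Ces4a fell by 2.26 ± 0.49 on the log2 scale from a low mean of 1.91 CPM, with overlapping groups (FDR = 0.00783, edgeR). The Ces1 genes are close relatives, and reads shared among them were left out of the counts.

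Other hydrolases that act on drugs and esters were likewise divided. Of 11 tested, 3 were higher and 3 lower (median log2 fold change 0.02), and DESeq2 also called Cmbl higher. Over all tested genes 7.18% were called higher and 6.48% lower, so the called share of this list was larger in both directions. Ephx1, the microsomal epoxide hydrolase, rose from 151 to 459 CPM (log2 fold change 1.61 ± 0.18; FDR = 4.20e-05, edgeR). Esd, S-formylglutathione hydrolase, rose by 0.35 ± 0.07, and Bphl, a valacyclovir hydrolase, by 0.26 ± 0.06 (log2 fold change ± SE). Aadac, a microsomal deacetylase that shares drug substrates with carboxylesterases, fell by 0.24 ± 0.06 on the log2 scale (FDR = 0.0236, edgeR). Of 3 tested microsomal partners, 1 was higher, beside 7.18% of all tested genes. It was Por, the reductase that supplies electrons to microsomal cytochromes P450, at 0.79 ± 0.14 (log2 fold change ± SE; FDR = 0.00265, edgeR).

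In each of the lipid lists 1 gene passed the test, a share near the 13.7% of all tested genes. Of 10 neutral lipid hydrolases, 1 was higher, Lipe, the hormone-sensitive lipase, by 0.27 ± 0.08 (log2 fold change ± SE; FDR = 0.0331, edgeR), and 0 were lower (4 at an unadjusted p under 0.05, 2 past the FDR with DESeq2, Pnpla3 and Lipc, 0 with limma-voom). The largest differences in these lists were in Pnpla3, a lipase of lipid droplets, with means of 68.0 and 25.4 CPM (log2 difference -1.42 ± 0.47, FDR = 0.0594, edgeR), and in Lpin1, a phosphatidate phosphatase, at -0.78 ± 0.29 (FDR = 0.0885, edgeR), neither past the threshold in edgeR and both chosen after their values were seen. Of 8 tested genes of acylglycerol synthesis, 1 was higher, Dgat1, which makes triacylglycerol, by 0.24 ± 0.07 (log2 fold change ± SE; FDR = 0.031, edgeR), and 0 were lower (1 at an unadjusted p under 0.05, 0 with DESeq2 and limma-voom). Of 8 receptors and partners known to act on Ces2 genes, 0 passed (edgeR; 1 higher and 1 lower at an unadjusted p under 0.05; 1 with DESeq2, 0 with limma-voom). Nr1i2, which encodes PXR, had means of 111 and 136 CPM (log2 difference 0.29 ± 0.10, FDR = 0.0658, edgeR), and its mRNA level says nothing of receptor activity.

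Profiles over the 12 mice were compared by the root mean square difference between log2 CPM values, each taken from the gene's own control mean. The difference between diets enters this distance, so genes with similar fold changes stand near each other. Shared variation between mice of one diet was not tested. Nearest to Ces2a were Cyp3a11, the main drug-oxidizing P450 of this family in mouse liver, at 0.277, Akr1b7, an aldo-keto reductase, at 0.363, and Cyp3a59 at 0.386. Cyp3a11 rose from 1537 ± 166 to 14544 ± 1897 CPM (SD, n = 6 each; log2 fold change 3.24 ± 0.12). Multi-mapped reads, such as any shared among the closely related Cyp3a genes, were left out of the counts. Nearest to Ces2c were Ugdh, which makes UDP-glucuronate, at 0.430, Gstm1, a glutathione transferase, at 0.430, and 9130409I23Rik at 0.459. Ces2g was nearest to Mif at 0.118, Exoc3l4 at 0.122 and Atpif1 at 0.123, and Ces2e to Vcp at 0.0916, Arhgef5 at 0.0933 and Arl8a at 0.0955. With small changes, as in Ces2e and Ces2g, such a distance is small for many genes.

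Genes beside the cluster did not follow it as a set. Within 500 kb of its outer ends lay 43 other genes, of which 27 were tested, with a median log2 fold change of -0.02. Of these 27, 1 was higher and 3 lower, a share near the 13.7% called over all tested genes. The nearest gene before the cluster, Fam96b, lay 92.3 kb away and differed by 0.03 ± 0.10 (log2; FDR = 0.853, edgeR). On the far side the nearest was Ces2h, at 31.3 kb, which was not tested, and the nearest tested was Ces3a, with a log2 difference of -0.39 ± 0.20 (FDR = 0.201, edgeR). Ces3b, a liver carboxylesterase 114 kb from the cluster, fell by 0.87 ± 0.21 on the log2 scale, and Cbfb, a transcription factor subunit, fell by 0.23 ± 0.07, both with overlapping groups. Nol3, an inhibitor of cell death at 307 kb, rose by 1.5 ± 0.26 (log2 fold change ± SE) from a mean of 0.526 CPM. Ces4a, described above, was the third lower gene.

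**Figure D5:**
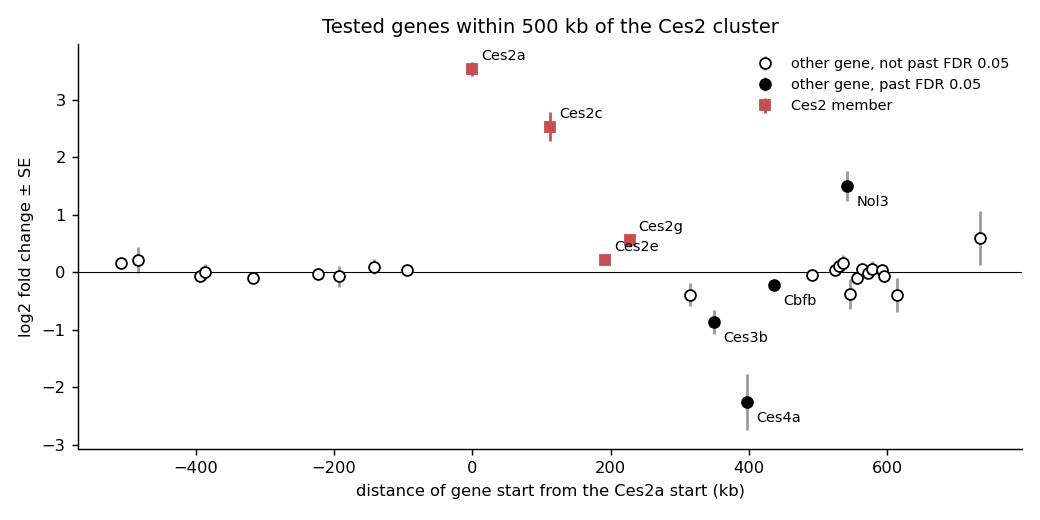
Log2 fold change ± SE of the 4 tested Ces2 members (squares) and of 27 other tested genes within 500 kb of the cluster (circles, filled where past an FDR of 0.05), by distance of the gene start from the Ces2a start in kb. The called neighbours are Ces3b, Ces4a, Cbfb and Nol3, and the genes before the cluster lie near 0.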

How the data were processed

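RNA-seq counts of mouse liver were analysed for 6 control and 6 BIBB-515 libraries, grouped by their labels. The authors deposited whole-number counts of reads per gene, made per the file headers with featureCounts 1.6.3 (Subread) on a UCSC annotation of mm10, unstranded, and excluding multi-mapped reads and reads on overlapping genes. STAR 2.5.3a stands in the submitters' processing notes. Deposited counts per exon were used for exon ratios, counts of primary alignments as an alternative, and counts per transcript were not used.

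The 12481 genes that reached 1 CPM in 2 or more of 12 libraries entered a quasi-likelihood fit in edgeR 4.0.16 (R 4.3.3) with TMM factors and diet as the only term, followed by Benjamini-Hochberg adjustment. Log2 CPM of each member and log2 ratios between members (0.5 reads added) were compared by two-sided exact permutation over 924 labelings. Sequences were taken from GENCODE and RefSeq tables of the same build. The edgeR, DESeq2 and limma-voom fits were tested on simulated data.

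Total counts per library were 22764819 to 31058370. Cages are not given per library, so p-values measure the spread between these mice. Members and lists were chosen with earlier results of these data known. Named genes were all members and other Ces2 genes; in each list up to 4 genes past the threshold with the lowest p, and the receptor nearest to it; called and nearest genes of the window; and 3 nearest profiles per tested member. The comparison of first and late exons and the motif ACTTTGCCC were chosen after seeing the data. Alternatives were DESeq2 1.42.0, limma-voom (limma 3.58.1), upper-quartile factors, other filters, primary alignments, 1 surrogate variable (sva 3.50.0) and each mouse left out.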

Additional observations from a re-analysis of the deposited data

Results flagged for a closer look

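Within the BIBB-515 group, mouse 10 stood apart from the other 5 in Ces2e, at 312 CPM against 349 CPM in the next lowest mouse, a gap of 0.629 of the group's range, above Dixon's critical value for 6 mice. Of 24 groups of values examined, 1 held such a mouse, and chance alone marks about 1 group in 20.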

How the results depend on the processing

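Ces2a, Ces2c and Ces2g kept their direction and stayed past an FDR of 0.05 in all alternatives run. Across them Ces2a had log2 fold changes of 3.48 to 3.58, Ces2c 2.37 to 2.80 and Ces2g 0.52 to 0.63, with 12 of the settings leaving out a mouse. Ces2e ranged from 0.16 to 0.29 with a mouse left out, past the FDR only without control 3 (0.29), and from 0.21 to 0.22 in the other 7 settings (FDR 0.0764 to 0.152). The number of members called was 3 to 4 with a mouse left out and 4 without a filter on low counts, where Ces2b was tested and called (log2 fold change 2.24, FDR = 0.0395, edgeR). Calls over all genes ranged from 1199 to 1865 with a mouse left out and from 1489 to 2443 otherwise. The 6 ratios between members kept their direction and stayed under 0.05. DESeq2 called 3 neutral lipid hydrolases and 1 receptor gene, Nr1i2. Levels per kilobase from exons with no shared word, where a read counts for each exon it touches, were 175 and 1987 for Ces2a (control and BIBB-515), 0.0288 and 0.209 for Ces2b, 4.13 and 23.1 for Ces2c, 238 and 273 for Ces2e and 52.9 and 76.8 for Ces2g, and Ces2g was 35.6 on BIBB-515 with primary alignments. No exon of Ces2c had a mean of 50 reads per library within each diet, as that setting asks, so it gave no value. No paired analysis was possible because the diets share only the replicate number 6. Depth limits Ces2b, at 28 reads in all, and Ces2c in control mice.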
